A study of Homo sapiens with 8 samples.

Results

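Heat shock proteins are molecular chaperones, which hold, fold or refold other proteins. HSP70 proteins bind short hydrophobic stretches under the control of J-domain cochaperones and nucleotide exchange factors, and HSP90 proteins take over clients such as kinases and hormone receptors. The genes are classically induced by heat shock factor 1 (HSF1) through heat shock elements, and chaperone levels are often raised in carcinoma cells. The genes examined here were the 10 heat shock protein genes HSPA1A, HSPA1B, HSPA8, HSP90AA1, HSP90AB1, HSPH1, DNAJB1, DNAJA1, HSPB1 and HSPD1. Members were taken as every entry whose RefSeq transcript belongs to one of these genes. Of the 10 genes, 9 had entries, with 17 transcripts in all, out of 14528 named genes and 24812 entries in the table. HSPA8, the constitutive HSP70, was not analysed here.

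The cells were SQ20B, an established human laryngeal squamous carcinoma line, so all values describe 1 cell line. The normoxia group was 4 replicates kept at 37 °C in 5% CO2, and the hypoxia group was 4 replicates held at 0.5% O2 for 16 h in a hypoxia chamber, with the same medium in both groups. Polyadenylated RNA was sequenced with a kit that keeps the strand. The table gave 1 FPKM value per condition, the authors' value over its replicates. FPKM is the number of fragments assigned to a transcript, divided by its length and by the mapped fragments. Values of single replicates were not analysed here, so no value below has an error, no test could be run, and no difference can be set against the spread between replicates.

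The label "cytosolic" did not hold for HSPD1, whose protein is the chaperonin of the mitochondrial matrix. HSPD1 is counted among the 9 genes below, and the median and the sum are also given without it. Hypoxia marker genes differed in the direction of the labels. Of 10 fixed genes, 8 were listed (all but LDHA and PGK1). All 8 were higher in hypoxia, by 1.02 (VEGFA) to 4.77 (CA9) on the log2 scale. Of 8 squamous epithelium markers 7 were listed, all but KRT14, and 3 of the 7 were lower in hypoxia. KRT5 was the highest, at 398 FPKM in normoxia and 442 in hypoxia, and KRT6A the lowest, at 5.10 and 3.26 FPKM. Of 9 markers of fibroblasts, leukocytes and endothelium, CD14 and CDH5 were listed, CD14 at 0.119 and 0.132 FPKM and CDH5 at 4.78 and 2.83 FPKM.

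The change of a gene is given as log2(hypoxia FPKM + 0.1) minus log2(normoxia FPKM + 0.1), with the FPKM of its listed transcripts added together. The added 0.1 understates changes of low genes. A gene was counted as fallen or risen when it was at least 1.5-fold lower or higher on this scale (0.585 in log2) and had a mean of at least 0.5 FPKM. Of all 12106 genes above that mean, 11.2% fell and 9.95% rose, and 56.4% were below 0. The summed FPKM of the table was 14.5% lower in hypoxia than in normoxia. This sum covers the entries of the table only, and none of them was matched to LDHA or PGK1. Scaling both columns to equal sums moved the median log2 change of all genes from -0.07 to 0.15, after which 4.99% fell and 18.6% rose. FPKM compares shares of the sequenced RNA, so a lower value cannot be told apart from a larger share of other transcripts.

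None of the 9 listed heat shock protein genes rose. HSPH1 alone fell, which is 11.1% of the 9 genes beside the 11.2% of all genes. The genes below 0 were 8 of 9, beside 56.4% of all genes and 82.1% of genes with a mean of at least 100 FPKM. After scaling to equal sums 5 of 9 were below 0, and 4 of 9 after quantile normalization. The shares of all genes below 0 under these scalings were not counted. The median log2 change was then -0.03 for the 9 and 0.15 for all genes with equal sums, and 0.02 and -0.02 with quantile normalization. The median log2 change of the 9 was -0.25, beside -0.07 for all genes and -0.29 for the 864 genes with a mean of at least 100 FPKM. Without HSPD1 the median was -0.19. The levels spanned 2.23 FPKM (HSPB1) to 759 FPKM (HSPD1) in normoxia. The order of the levels changed at the top, where HSPD1 was first in normoxia and the third in hypoxia, after HSP90AB1 and HSP90AA1. It also changed for HSPH1, which was above DNAJB1 in normoxia (57.2 and 43.9 FPKM) and below it in hypoxia (33.8 and 39.8 FPKM).

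**Figure D1:**
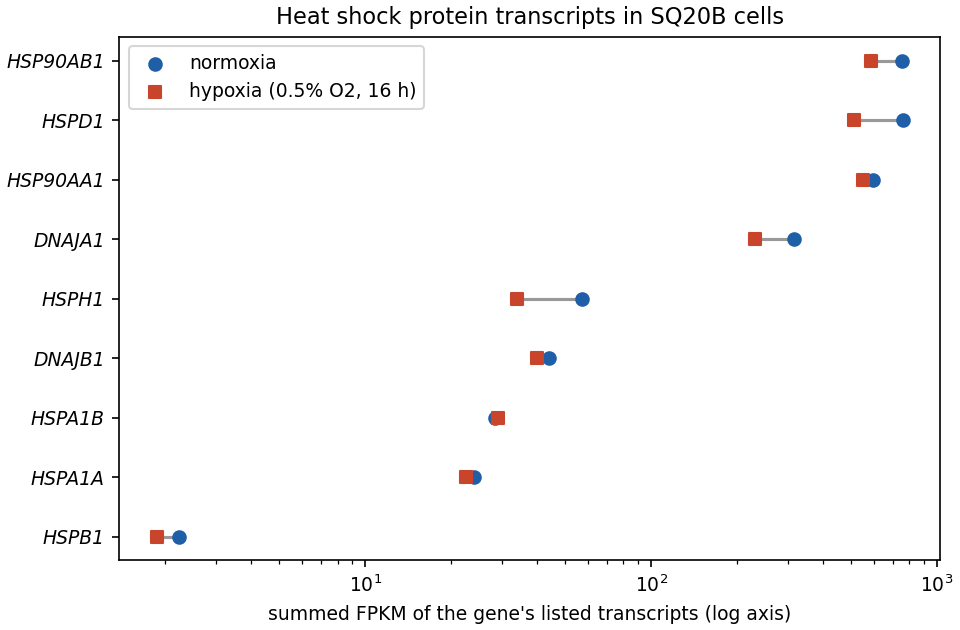
FPKM of each listed heat shock protein gene in normoxia (blue circles) and hypoxia (red squares), on a log axis, 1 authors' value per condition with no error. The red square lies left of the blue circle in 8 of 9 genes, with the widest gap for HSPH1 (57.2 and 33.8 FPKM).

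Heat shock elements are arrays of the unit GAA and its inverse TTC, each separated by 2 bases, and they are shown before the values because they are the regulatory sequence these genes are known for. Promoter windows of 250 bases before and 50 after a RefSeq start site (GRCh38.p14) were searched for 3 alternating units, GAANNTTCNNGAA or TTCNNGAANNTTC, and for 2 units, GAANNTTC or TTCNNGAA, which lie inside the 3-unit motifs. Each of these motifs was searched on both strands. Of the 9 genes with values, 4 held 3 units in a window (HSP90AA1, HSP90AB1, DNAJA1 and HSPD1), compared with 0.445% of 9671 tested genes that had a window. At least 2 units were found for 8 of the 9, compared with 13.9% of those genes. Some genes have several windows, which gives them more chances of a match.

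The longest run of units in each gene is printed 5′ to 3′ on the gene's strand within 30 bases, with the units and the bases between them in capitals, for the genes whose values follow.
HSPA1A (chr6:31815426-31815455, GRCh38.p14, plus strand): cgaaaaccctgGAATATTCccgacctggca
HSPA1B (chr6:31827622-31827651, plus strand): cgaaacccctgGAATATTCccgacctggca
HSP90AA1 (chr14:102087111-102087140, minus strand): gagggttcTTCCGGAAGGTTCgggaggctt
HSP90AB1 (chr6:44247770-44247799, plus strand): ggagcaggTTCTGGAAGATTCatgggctcc
DNAJB1 (chr19:14518456-14518485, minus strand): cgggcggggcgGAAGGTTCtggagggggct
DNAJA1 (chr9:33025268-33025297, plus strand): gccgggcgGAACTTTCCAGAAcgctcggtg
HSPB1 (chr7:76302480-76302509, plus strand): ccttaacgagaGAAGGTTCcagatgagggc
HSPD1 (chr2:197500061-197500090, minus strand): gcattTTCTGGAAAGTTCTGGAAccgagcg

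The run of HSPD1 was the longest, with 4 units in 18 bases beginning 245 bases before the start site. The run of HSP90AA1 began 88 bases before the start, and that of DNAJA1 began 3 bases after it, within the transcribed part. The run of HSP90AB1 began 165 bases before a RefSeq start site that lies 842 bases after the start of its canonical GENCODE transcript, which places it inside an intron of that transcript. No run of 2 units was found in the window of HSPH1. That window belongs to a start site 484 bases before the canonical start of HSPH1, so the sequence at the canonical start was not searched. A match is a string of letters and no measure of HSF1 binding, which was not measured.

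The core of the hypoxia response element, ACGTG or GCGTG on either strand, is the sequence bound by hypoxia-inducible factors. It was present in a window of 4 of the 9 genes (HSP90AA1, HSP90AB1, DNAJB1 and HSPD1) and in 70.0% of the tested genes with a window. Among the 43 tested genes with 3 heat shock units, 39 of which are not members, 2 fell and 5 rose, with a median log2 change of -0.12. Of all tested genes, 11.2% fell and 9.95% rose, with a median of -0.07.

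The inducible HSP70 genes HSPA1A and HSPA1B showed little difference. HSPA1A was at 23.99 FPKM in normoxia and 22.6 FPKM in hypoxia, a log2 change of -0.09 that became 0.14 with equal sums and 0.02 with quantile normalization. HSPA1B was at 28.4 and 29.1 FPKM, a log2 change of 0.04 and the only one of the 9 above 0. HSPA1B was thus 1.18 times HSPA1A in normoxia and 1.29 times in hypoxia.

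The values of this pair have limits of their own. Their entries lie on an alternative haplotype of the major histocompatibility complex, chr6_qbl_hap6 in hg19, at 3076938 to 3079366 for HSPA1A and 3089163 to 3091686 for HSPA1B. In the table, 228 entries lie on 5 such haplotype contigs and 0 lie on chromosome 6 itself across this complex. The longest open reading frames of the transcripts (1926 bases each) differ at 4 positions. In their canonical transcripts 75.1% (HSPA1A) and 73.6% (HSPA1B) of all 50-base stretches also occur in another gene, mostly in each other. Reads from the pair could therefore be split in ways the sources used here do not state, and the part of this in their values was not tested. The 172 entries on these haplotypes with a mean of at least 0.5 FPKM had a median log2 change of -0.02.

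The upstream sequences of the pair are printed whole because their likeness goes beyond the transcripts. The promoter windows were 92.6% identical in a global alignment (277 of 299 aligned bases). The capitals mark the 2 heat shock units, which began 106 bases before the start in HSPA1A and 105 bases before it in HSPA1B.
HSPA1A (chr6:31815293-31815542, GRCh38.p14, plus strand): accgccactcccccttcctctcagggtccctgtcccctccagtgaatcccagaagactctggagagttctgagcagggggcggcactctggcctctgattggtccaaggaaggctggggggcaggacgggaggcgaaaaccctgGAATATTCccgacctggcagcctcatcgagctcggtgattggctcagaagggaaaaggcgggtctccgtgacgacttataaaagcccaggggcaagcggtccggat
HSPA1B (chr6:31827488-31827737, GRCh38.p14, plus strand): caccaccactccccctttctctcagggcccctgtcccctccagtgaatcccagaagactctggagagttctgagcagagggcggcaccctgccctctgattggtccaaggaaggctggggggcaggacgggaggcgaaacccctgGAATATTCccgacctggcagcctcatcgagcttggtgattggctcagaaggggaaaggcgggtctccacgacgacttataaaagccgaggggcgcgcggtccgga

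The cytosolic HSP90 genes were among the most abundant genes of the table. HSP90AB1, the constitutive form, was at 754 FPKM in normoxia and 587 FPKM in hypoxia, 1.29-fold lower (log2 change -0.36, but 0.02 with quantile normalization). HSP90AA1, the more stress-inducible form, was at 595 and 549 FPKM, 1.08-fold lower (log2 change -0.12, but 0.11 with equal sums and 0.25 with quantile normalization). HSP90AA1 thus went from 0.789 to 0.936 of the FPKM of HSP90AB1, a difference of 0.25 between their log2 changes. HSP90AA1 lay at percentile 99.1 and HSP90AB1 at percentile 99.2 of level among the tested genes.

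Most of the HSP90 signal was in 1 transcript of each gene. NM_005348 held 99.7% of HSP90AA1 in normoxia and 99.8% in hypoxia. The longer NM_001017963, which extends the locus to 102606086 on chromosome 14, was at 1.59 and 1.07 FPKM. NM_007355 held 99.2% of HSP90AB1 in both conditions, and its 4 other listed transcripts lay between 0.115 and 4.45 FPKM. In the canonical transcripts, 19.1% (HSP90AA1) and 19.7% (HSP90AB1) of 50-base stretches also occur in another gene, chiefly in the processed pseudogenes HSP90AA2P and HSP90AB3P. The listed positions in hg19 were 102547075 to 102606086 on chromosome 14 for HSP90AA1 and 44213903 to 44221625 on chromosome 6 for HSP90AB1.

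HSPH1 encodes HSP110, a nucleotide exchange factor for HSP70 that acts in disaggregation. It was at 57.2 FPKM in normoxia and 33.8 FPKM in hypoxia, 1.69-fold lower (log2 change -0.76), at percentile 6.02 of the changes of all tested genes. With equal sums its log2 change was -0.53, short of 1.5-fold, and with quantile normalization it was -0.59. Its canonical transcript had 0 of 5195 stretches of 50 bases in common with another gene. Its locus was listed at 31709111 to 31736525 on chromosome 13.

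The 3 listed transcripts of HSPH1 differed in their changes. NM_006644 fell from 21.8 to 10.1 FPKM, 2.14-fold, and NM_001286504 fell from 34.0 to 22.1 FPKM, 1.53-fold (log2 changes -1.10 and -0.62). NM_001286503 was at 1.47 and 1.65 FPKM. The share of NM_006644 in the gene was 38.1% in normoxia and 29.8% in hypoxia, and that of NM_001286504 was 59.4% and 65.3%. Assignment of reads among overlapping transcripts is an estimate whose error was not analysed here.

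**Figure D2:**
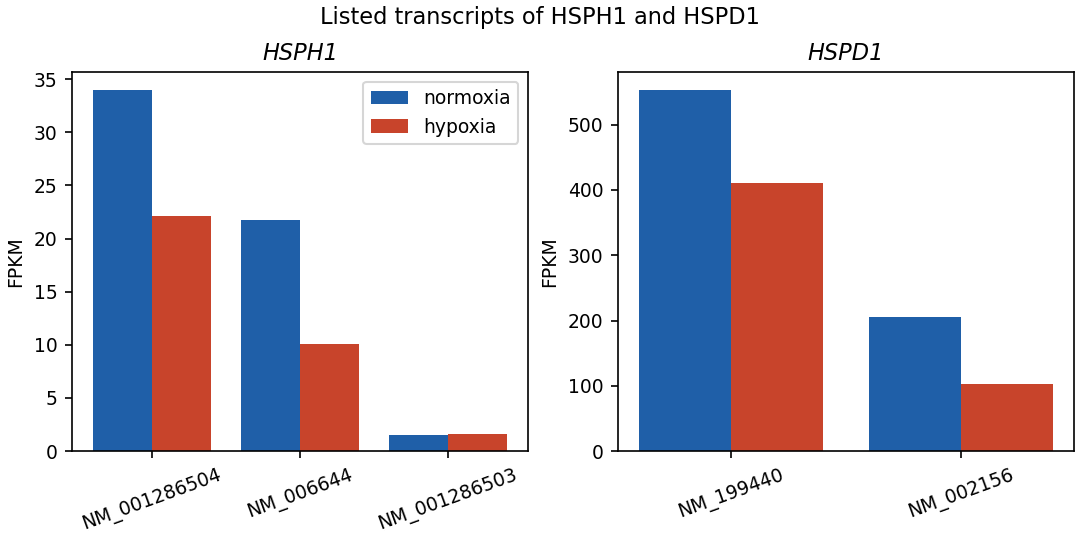
FPKM of the listed transcripts of HSPH1 (left) and HSPD1 (right) in normoxia (blue bars) and hypoxia (red bars), 1 authors' value per condition with no error. NM_006644 of HSPH1 (21.8 and 10.1 FPKM) and NM_002156 of HSPD1 (206 and 103 FPKM) differed by a larger fold than the more abundant transcript beside each. Their differences in FPKM, which the bars show, were not larger.

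The J-domain genes DNAJA1 and DNAJB1 encode cochaperones that deliver substrates to HSP70 and start its ATP hydrolysis. DNAJA1 was at 316 FPKM in normoxia and 231 FPKM in hypoxia, 1.37-fold lower (log2 change -0.45). DNAJB1, the main heat-inducible J-domain gene, was at 43.9 and 39.8 FPKM, 1.10-fold lower (log2 change -0.14, but 0.08 with equal sums and 0.02 with quantile normalization). The difference was thus larger in the more abundant gene of the pair. Each gene had 1 listed transcript, at 33025209 to 33039062 on chromosome 9 for DNAJA1 and 14625582 to 14629201 on chromosome 19 for DNAJB1, and 1.54% and 2.60% of their 50-base stretches occur in another gene.

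HSPB1 encodes HSP27, a small heat shock protein that holds unfolded clients. It was the lowest of the 9 genes, at 2.23 FPKM in normoxia and 1.87 FPKM in hypoxia (log2 change -0.25), at percentile 19.9 of level. Levels in this table moved with the GC content of the transcripts. The median level was 18.3 FPKM for the 1176 tested genes whose coding transcripts had a mean GC content under 40% and 2.28 FPKM for the 1283 genes over 60%. HSPB1 had 64.9% GC, the highest of the 9 genes, and 46.7% of the genes over 60% were at or below its level. The part of GC content in its level was not tested. The same classes of GC content had median log2 changes between -0.10 and -0.05. Its entry lies at 75931875 to 75933614 on chromosome 7, and 13.5% of its 50-base stretches also occur in another gene, such as HSPB1P1.

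**Figure D3:**
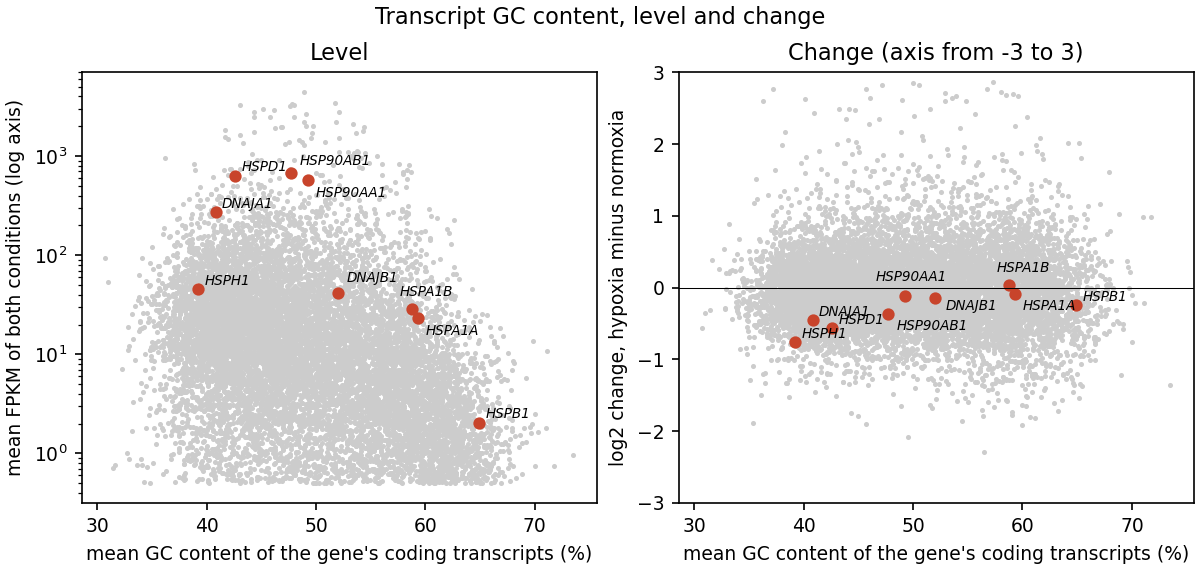
Mean FPKM (left, log axis) and log2 change in hypoxia (right) of 11075 tested genes with a GC value (grey) and the 9 listed heat shock protein genes (red), against the mean GC content of a gene's coding transcripts in percent. Each point is 1 gene, and 16 genes lie outside the right axis. Levels are lower at high GC content, where HSPB1 lies. Over all tested genes the median log2 change lies between -0.10 and -0.05 in every class of GC content. Among those with a mean of at least 20 FPKM it is -0.17 under 40% and -0.30 over 60%.

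Among the 9 genes, the lowest log2 changes were those of the 3 with the lowest GC content, HSPH1 (39.2% GC, -0.76), DNAJA1 (40.8% GC, -0.45) and HSPD1 (42.6% GC, -0.56). HSPB1 (64.9% GC, -0.25) was lower than HSPA1A (59.3% GC, -0.09) and HSPA1B (58.8% GC, 0.04). In all tested genes with a mean of at least 20 FPKM, the share that fell went from 9.28% under 40% GC to 31.2% over 60% GC. Their median log2 change was -0.17 under 40% GC and -0.30 over 60% GC. The part of GC content in the changes was not tested.

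HSPD1 encodes HSP60, which folds proteins in mitochondria within a chamber closed by the cochaperonin HSPE1. HSPD1 was at 759 FPKM in normoxia and 514 FPKM in hypoxia, 1.48-fold lower (log2 change -0.56), just short of 1.5-fold. HSPE1, whose gene lies beside HSPD1 and shares its promoter region, was at 243 and 166 FPKM (log2 change -0.54). The ratio of HSPD1 to HSPE1 was 3.13 in normoxia and 3.09 in hypoxia, and their log2 changes differed by -0.02.

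HSPD1 was listed with 2 transcripts at 198351308 to 198418423 on chromosome 2, an interval shared with HSPE1 and MOB4 entries. NM_199440 was at 553 and 411 FPKM (1.34-fold lower) and NM_002156 at 206 and 103 FPKM (2.00-fold lower, log2 change -0.998). The share of NM_002156 in the gene was 27.2% in normoxia and 20.1% in hypoxia. Of the 50-base stretches of its canonical transcript 27.1% also occur in 10 other genes, chiefly the pseudogene HSPD1P1.

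Added together, the 9 genes had 2578 FPKM in normoxia and 2008 FPKM in hypoxia, 22.1% lower. The log2 change of this sum was -0.36, beside -0.23 for the sum of the whole table. Without HSPD1, an alternative chosen after seeing the data, it was -0.28. The sum of all 9 genes was 0.481% of the whole table in normoxia and 0.438% in hypoxia. HSPD1, HSP90AB1, HSP90AA1 and DNAJA1 made up 94.0% of it in normoxia and 93.7% in hypoxia, so the sum mostly describes these 4 genes. In bulk RNA, fewer cells expressing a gene and less of its RNA in each cell cannot be told apart.

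HSF1, the main activator of heat shock genes, was at 3.10 FPKM in normoxia and 2.16 FPKM in hypoxia (log2 change -0.50, or -0.28 with equal sums). HSF2 was at 14.6 and 14.4 FPKM. HSBP1, which binds HSF1 and represses it, was at 166 and 160 FPKM. None of these 3 passed 1.5-fold, and HSF4 was not analysed here. HSF1 is mostly controlled after translation, by its assembly into trimers and its phosphorylation, which RNA levels do not show.

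The median log2 change of the HSP90 cochaperones was lower than the change of either cytosolic HSP90 gene, though this did not hold for every cochaperone. Of 15 listed genes 5 fell and none rose, beside 11.2% and 9.95% of all genes, and their median log2 change was -0.52. FKBP4, an immunophilin of steroid receptor complexes, fell 2.02-fold from 89.7 to 44.4 FPKM. TTC4 fell 1.82-fold, AHSA1, which stimulates the ATPase of HSP90, fell 1.61-fold from 175 to 109 FPKM, and STIP1 fell 1.57-fold from 312 to 199 FPKM. STIP1, which bridges HSP70 and HSP90, went from 0.414 to 0.339 of the FPKM of HSP90AB1. PTGES3, which encodes the cochaperone p23, was not past 1.5-fold at 199 and 192 FPKM. With equal sums, 2 of the 15 genes fell and 1 rose, beside 4.99% and 18.6% of all genes.

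The cochaperones of HSP70 included 3 of 9 that fell and none that rose, beside 11.2% and 9.95% of all genes. The median of the 9 was -0.36. BAG2 fell 2.01-fold from 65.5 to 32.5 FPKM, STUB1, the ubiquitin ligase CHIP, fell 1.63-fold and BAG1 fell 1.52-fold. BAG3, a heat-inducible member, was at 11.7 and 10.2 FPKM. With equal sums, 1 of the 9 fell, beside 4.99% of all genes.

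The other HSP70 and HSP110 genes differed in both directions. HSPA4, an HSP110 like HSPH1, fell 1.72-fold from 128 to 74.1 FPKM, and HSPA14 fell 1.75-fold from 48.8 to 27.8 FPKM. HSPA2, HSPA1L and HSPA12A rose, with log2 changes of 0.97, 0.62 and 0.62, from low levels between 0.375 and 4.22 FPKM. The mean of HSPA1L was 0.503 FPKM, just above the limit of 0.5. In this group of 7 listed genes, 1 rose when 1 FPKM was added in place of 0.1, and 1 with quantile normalization. Of all genes, 5.94% and 10.0% rose in these settings. HSPA4 and HSPA14 were short of 1.5-fold with equal sums. Of the 22 other J-domain genes of cytosol and nucleus, 3 fell and 1 rose, with a median of -0.22. Of all genes, 11.2% fell and 9.95% rose. Among the relatives of DNAJA1, DNAJA4 was at 3.71 and 3.67 FPKM. DNAJA2 fell 1.76-fold from 128 to 72.3 FPKM, DNAJC2 fell 1.70-fold and DNAJC17 fell 1.85-fold, while DNAJB2 rose from 3.84 to 6.69 FPKM. HSPB8 was the only listed gene among 9 other small heat shock protein genes, at 16.2 and 16.8 FPKM.

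The CCT chaperonin is the cytosolic ring that folds actin and tubulin, and its genes had the lowest median of the groups compared. Of its 8 subunit genes 7 fell and all 8 were below 0, with a median of -0.79 and a range from -0.91 (CCT5) to -0.47 (CCT8). Of all genes 11.2% fell and 56.4% were below 0, and of those with a mean of at least 100 FPKM, 18.2% and 82.1%. CCT2 fell 1.78-fold from 1103 to 621 FPKM, and CCT4 fell 1.77-fold from 429 to 242 FPKM. All 8 stayed below 0 under each scaling, but the number past 1.5-fold was 4 with equal sums and 1 with quantile normalization. Of all genes, 4.99% fell with equal sums and 9.72% with quantile normalization. The mitochondrial chaperones other than HSPD1 were also all below 0, with 4 of 9 fallen, 2 with equal sums and 3 with quantile normalization. HSPA9, the mitochondrial HSP70, fell 1.74-fold from 405 to 233 FPKM, and DNAJA3 fell 1.80-fold. DNLZ and HSCB fell 2.03-fold and 1.62-fold from 1.64 and 18.6 FPKM.

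The chaperones of the endoplasmic reticulum differed in direction. Of 20 listed genes 2 rose, 1 fell and 7 were below 0, with a median of 0.12. Of all genes, 9.95% rose, 11.2% fell and 56.4% were below 0. With equal sums 5 of the 20 rose and their median was 0.35, beside 18.6% and a median of 0.15 for all genes. With quantile normalization 6 rose and the median was 0.29, beside 10.0% and -0.02 for all genes. ERO1A, an oxidase of disulfide formation, rose from 84.2 to 169 FPKM (log2 change 1.00), and P4HB, a disulfide isomerase and prolyl hydroxylase subunit, rose from 68.5 to 105 FPKM (log2 change 0.61). SDF2L1 fell 1.77-fold from 4.31 FPKM. HSP90B1, the HSP90 of this compartment, was at 453 and 548 FPKM (log2 change 0.28), set beside -0.12 and -0.36 for the cytosolic HSP90AA1 and HSP90AB1. HSPA5, its HSP70, was at 49.5 and 67.6 FPKM (log2 change 0.45), set beside -0.09 and 0.04 for HSPA1A and HSPA1B. With 1 value per condition no test of the differences between groups was possible.

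**Figure D4:**
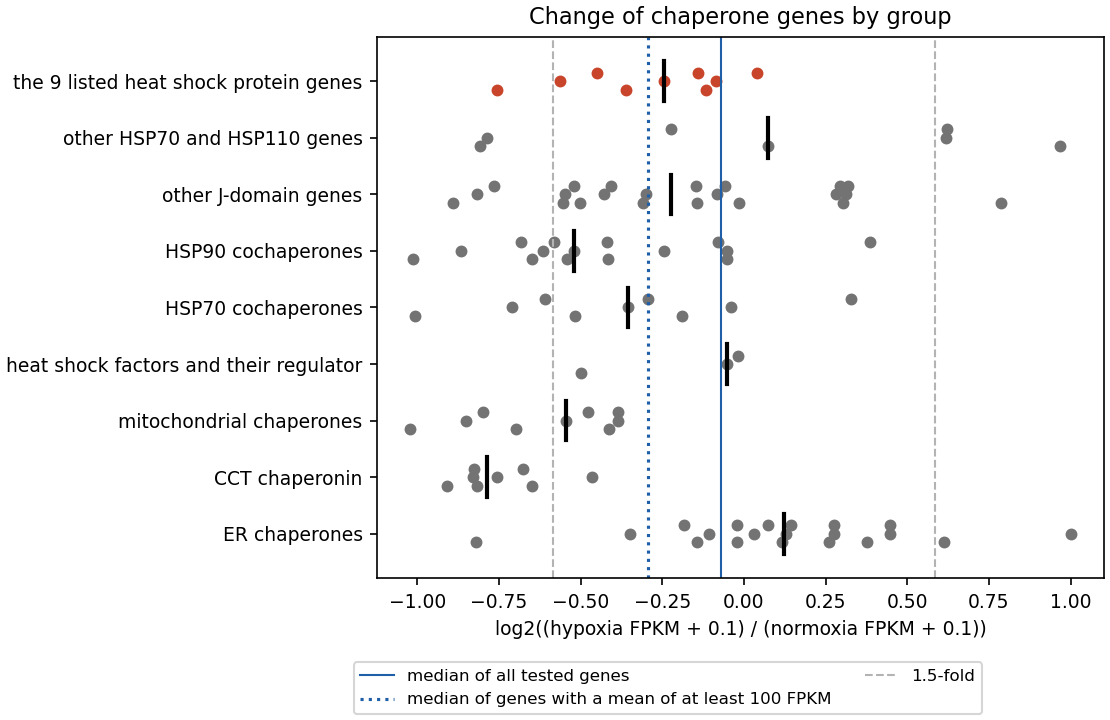
Log2 change of each gene (points) in the listed heat shock protein genes (red) and the other chaperone groups (grey), with the median of each group (black bar). Solid and dotted blue lines are the medians of all tested genes (-0.07) and of genes with a mean of at least 100 FPKM (-0.29), and dashed grey lines mark 1.5-fold. The 8 CCT genes lie left of the solid line, and most genes of the endoplasmic reticulum lie right of it.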

How the data were processed

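Expression was taken from the deposited table of transcripts. The authors aligned reads with STAR 2.3.0.1 and estimated FPKM with Cufflinks 2.1.1 on RefSeq hg19, and the deposited FPKM values are 1 per condition over 4 replicates each. How reads matching several places were treated is not given in the sources used here. Deposited fold changes, test statistics, p-values and q-values were not used. The hypoxia treatment text also stands on the normoxia labels, so groups were taken from the source label. Depths of single samples were not analysed here, so no interval is given.

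RefSeq identifiers were paired with symbols through the annotation of GRCh38.p14 (24293 of 24812 entries, 97.9%). Listed starts were raised by 1, since 5320 of 12760 loci then began at a GENCODE transcript start and 637 did so as listed. Shared stretches and GC content came from GENCODE v44 transcripts on GRCh37, and promoters from RefSeq. GC values were found for 91.5% of tested genes. The calculation was tested on simulated data.

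The members and gene lists were chosen with earlier results of these data known. All members are named, with, per other chaperone list, up to 4 genes past 1.5-fold in each direction and HSF1. PTGES3, BAG3, HSPB8, DNAJA4, HSF2, HSBP1, HSP90B1, HSPA5, HSPE1 and CCT8 were named beyond this rule, for their known roles or as the end of a range, after their values were seen. Python 3.11.15, numpy 2.4.6, pandas 2.3.3 and matplotlib 3.10.9 were used.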

Additional observations from a re-analysis of the deposited data

How the results depend on the processing

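No paired analysis was possible because each condition has 1 value over its replicates, and no replicate could be left out for the same reason. The number of listed heat shock protein genes at least 1.5-fold lower was 1, and it was 0 with columns scaled to equal sums, 4 at a limit of 1.2-fold and 0 at a limit of 2-fold. Their median log2 change of -0.25 became 0.020 with quantile normalization. Single genes that changed sign were HSPA1A (0.14), HSP90AA1 (0.11) and DNAJB1 (0.083) with equal sums, and HSPA1A (0.022), HSP90AA1 (0.25), HSP90AB1 (0.020) and DNAJB1 (0.020) with quantile normalization. In the other chaperone groups, 25 genes fell and 6 rose. At 1.2-fold these were 49 and 18, and with equal sums 12 and 10. Of all genes, 11.2% fell and 9.95% rose, and with equal sums 4.99% fell and 18.6% rose. The shares of all genes past 1.2-fold and 2-fold were not counted, so the counts at these limits have no share beside them. Other pseudocounts, centring on the median, other FPKM limits, the most abundant transcript alone and adding HSPA1A to HSPA1B kept the count of heat shock protein genes past 1.5-fold, and these settings (where they bear on it) and leaving out HSPD1 kept the sign of the median. The median was -0.36 without HSPA1A and HSPA1B, an alternative chosen after seeing the data. All directions rest on the authors' scaling of the columns, and without replicate values none can be set against an error.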

Other observations

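Partners of the chaperones outside the lists above were examined in lists chosen after the values were seen. Prefoldin, which hands nascent actin and tubulin to the CCT chaperonin, had all 6 subunit genes below 0, beside 56.4% of all genes. The median log2 change of the 6 was -0.52, with a range from -0.62 (VBP1) to -0.29 (PFDN5). VBP1 fell 1.54-fold from 103 to 66.7 FPKM and was the only one past 1.5-fold. The 3 phosducin-like partners of CCT had a median log2 change of -0.13. TXNDC9 was at 119 and 89.4 FPKM (log2 change -0.41, within the range of prefoldin) and PDCL at 24.1 and 24.2 FPKM. Of 5 tubulin cofactors, which act after CCT, none passed 1.5-fold.

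RUVBL1 and RUVBL2, the ATPases of the R2TP complex that works with HSP90, fell 2.00-fold (90.7 to 45.3 FPKM) and 1.79-fold (19.8 to 11.0 FPKM). VCP, the segregase of ubiquitinated proteins, was at 138 and 110 FPKM. The polyubiquitin gene UBB, which is heat-inducible, fell 1.68-fold from 788 to 469 FPKM, while the ubiquitin fusion gene RPS27A was at 2723 and 2243 FPKM (log2 change -0.28). BTF3L4 fell 1.57-fold, beside its relative BTF3 at 1153 and 924 FPKM, part of the complex that meets nascent chains at the ribosome.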
